A study of Homo sapiens with 16 samples.

Results

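Genes encoding inhibitors of cyclin-dependent kinases (CDKs), 6 in number and taken by symbol, were followed in 2 pancreatic ductal adenocarcinoma lines with and without gemcitabine: CDKN1A, CDKN1B, CDKN1C, CDKN2C, CDKN2D and CDKN3. They are 6 of 58735 genes listed in each table. BxPC3 and PANC-1 are established human lines, and the labels describe 4 groups of 4 libraries: BxPC3 control, BxPC3 with gemcitabine, PANC-1 control and PANC-1 with gemcitabine. The controls are called untreated in the title of the study, and neither a dose nor a duration of treatment is stated in the labels. Both lines are known to carry a deleted CDKN2A locus, a state that all 4 groups share, and each effect of the drug was measured within a line. The labels do not say whether the 4 libraries of a group are 4 cultures or 1 culture sequenced repeatedly; the p-values below therefore rest on a spread that may be technical.

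CDKs drive the cell cycle when bound by cyclins, and CDK inhibitors hold them back. The CIP/KIP family (p21 from CDKN1A, p27 from CDKN1B and p57 from CDKN1C) binds cyclin-CDK complexes broadly, whereas the INK4 family (p16 from CDKN2A, p15 from CDKN2B, p18 from CDKN2C and p19 from CDKN2D) binds CDK4 and CDK6 alone and keeps them from cyclin D. CDKN3 is a dual-specificity phosphatase that acts on CDK2 and CDK1, and its transcript is known to be most abundant in G2 and mitosis. Gemcitabine is a deoxycytidine analogue that stalls DNA replication.

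Messenger RNA was sequenced after poly-A enrichment, and levels are in FPKM (fragments scaled by gene length and library size). Depth was 22152034 to 37777222 reads in listed genes, at which 3 reads on a gene of 1 kb amount to 0.0803 to 0.138 FPKM. Epithelial markers were read in both lines: all 6 had a mean of at least 1 FPKM in BxPC3 controls and 4 of 6 in PANC-1 controls. The summed level of the 6 was 2826 to 3297 FPKM in BxPC3 controls and 2672 to 3101 FPKM with gemcitabine, against 337 to 369 FPKM and 551 to 758 FPKM in PANC-1. The 4 mesenchymal markers summed to 2.87 to 3.23 FPKM in BxPC3 controls and 13.0 to 15.2 FPKM with gemcitabine, and to 280 to 309 FPKM and 190 to 242 FPKM in PANC-1. Of 8 markers of blood, vessel and stroma cells only COL1A1 reached a mean of 1 FPKM, in both lines. The part of these shifts in the results on CDK inhibitors was not tested. Libraries stood apart in 2 groups. PANC-1 gemcitabine replicate 1 was set against the mean of the other libraries of its group on the log2 scale. Genes of at least 56.7% GC lay a median of 0.45 above that mean. Genes of at most 42.1% GC had a median of -0.42. BxPC3 control replicate 2 differed from the other controls of its line by a chi-square per degree of freedom of 14.3 to 16.9, where the others differed among themselves by 2.07 to 2.79. The BxPC3 gemcitabine libraries were not alike either: they differed from one another by 3.52 to 12.8, the most between replicates 1 and 4. PANC-1 gemcitabine replicate 1 and BxPC3 control replicate 2 are named below for some of the values they touch, not for all.

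The INK4 genes of the deleted locus had no reads. CDKN2A and CDKN2B were listed at 0 FPKM in all 16 libraries, which leaves CDKN2C and CDKN2D as the INK4 genes with reads. The 6 genes studied here were all read: in control cells of BxPC3, the mean level fell from CDKN1A (53.6 FPKM) through CDKN1B (27.8), CDKN2C (9.43), CDKN2D (5.60) and CDKN3 (3.96) to CDKN1C (1.20). No neighbours in that order overlapped between libraries. PANC-1 controls were led by CDKN1B (22.8 FPKM), followed by CDKN1A (11.6), CDKN2C (6.54), CDKN2D (4.67), CDKN1C (4.53) and CDKN3 (2.74). CDKN2D and CDKN1C overlapped there and the other neighbours did not. The 2 tables were normalised separately, so levels were set side by side without a test: CDKN1A was 4.60 times as high in BxPC3 controls as in PANC-1 controls, and CDKN1C was 3.78 times as high in PANC-1 controls as in BxPC3 controls.

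**Figure D1:**
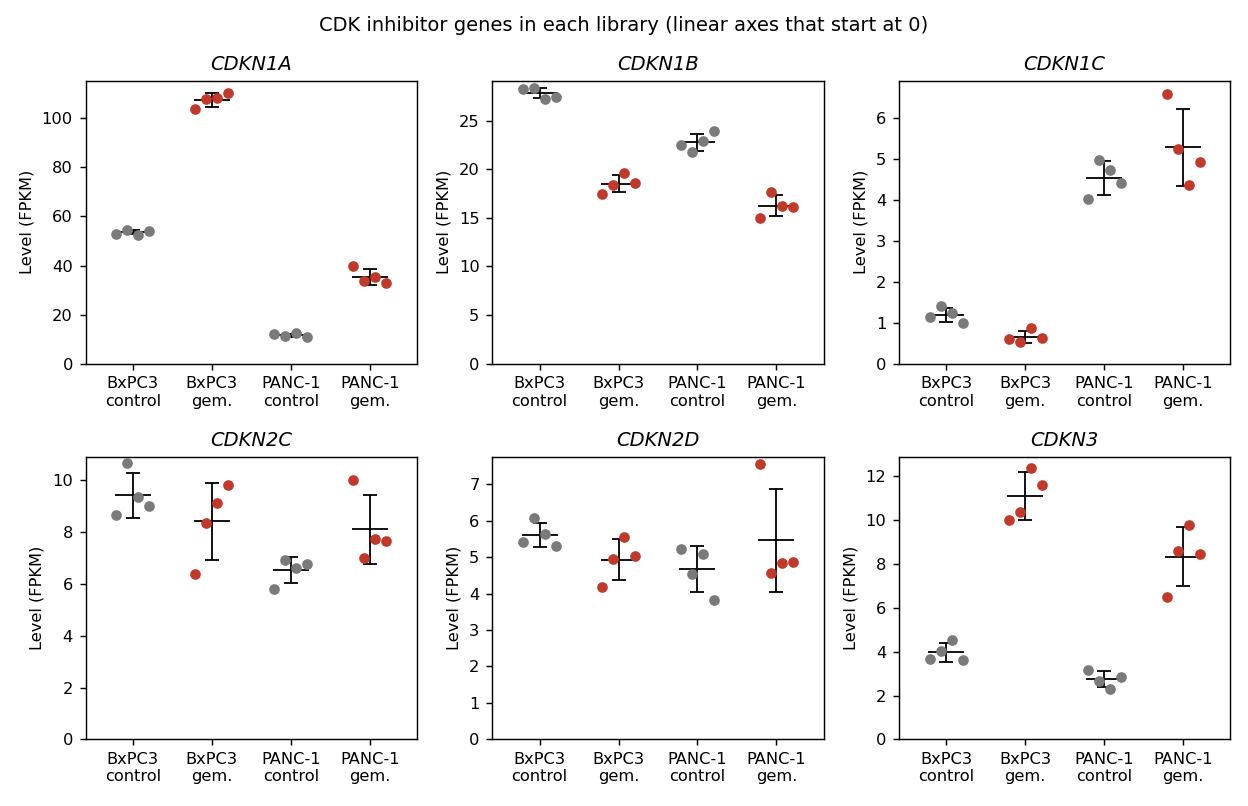
Level of each CDK inhibitor gene in FPKM (vertical axis, linear from 0) in each of the 16 libraries (points, replicates 1 to 4 from left to right), by line and treatment (gem., gemcitabine); horizontal bars are means and whiskers SD, n = 4. CDKN1A and CDKN3 lay higher and CDKN1B lower in every gemcitabine library of both lines, and PANC-1 gemcitabine replicate 1 was the highest of its group for CDKN1A, CDKN1C, CDKN2C and CDKN2D.

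With gemcitabine, CDKN1A and CDKN3 rose and CDKN1B fell in both lines, and CDKN1C fell in BxPC3. Each line was tested with limma on log2(FPKM + 1) over every gene that reached 1 FPKM in 4 or more libraries, and p-values were adjusted over those genes by Benjamini-Hochberg and called under 0.05. In BxPC3, 2 of the 6 genes were called higher, 2 lower and 2 neither, when 37.3% of 12215 genes tested were called higher and 36.1% lower. In PANC-1, 2 were called higher, 1 lower and 3 neither, when 20.7% of 12508 genes tested were called higher and 24% lower. The median change over all genes tested was 0.0044 in BxPC3 and -0.024 in PANC-1, and over the 6 genes it was -0.16 and 0.22, on the log2(FPKM + 1) scale. These counts are near the shares over all genes and are no result about the inhibitors as a set. In bulk RNA, a change in the share of cells in a given phase and a change within each cell cannot be told apart.

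CDKN1A encodes p21, which binds and inhibits cyclin-CDK complexes of G1 and S phase. Its level was 53.04, 54.6, 52.6 and 53.9 FPKM in the 4 BxPC3 controls and 104, 108, 108 and 110 FPKM with gemcitabine. All 4 treated libraries stood above all 4 controls, and the difference was many times the spread within either group. The mean was 2.01 times as high, from 53.6 ± 0.888 to 107 ± 2.73 FPKM (SD, n = 4), a log2 change of 0.99 ± 0.03 (SE; adjusted p = 5.09e-09 by limma). In PANC-1, CDKN1A read 11.9, 11.4, 12.4 and 10.9 FPKM in controls and 39.9, 33.8, 35.3 and 32.7 FPKM with gemcitabine. Again the groups did not overlap, and replicate 1 was the highest of the treated libraries. The mean was 3.04 times as high, a log2 change of 1.52 ± 0.07 (adjusted p = 9.26e-07 by limma), and the change was 1.47 without that replicate. Even so, treated PANC-1 cells stayed below the level of untreated BxPC3 cells, with 35.4 ± 3.15 against 53.6 ± 0.888 FPKM (SD, n = 4).

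CDKN1B encodes p27, which holds cyclin E-CDK2 in check in resting cells and is controlled largely through its protein. It read 28.3, 28.3, 27.2 and 27.5 FPKM in BxPC3 controls and 17.5, 18.4, 19.6 and 18.6 FPKM with gemcitabine. Every treated library lay below every control, and the mean was 33.5% lower (log2 change -0.56 ± 0.04 SE, adjusted p = 6.49e-07 by limma). PANC-1 read 22.5, 21.8, 22.9 and 23.9 FPKM in controls and 14.9, 17.6, 16.2 and 16.1 FPKM with gemcitabine. The groups were again apart, and the mean was 28.7% lower (log2 change -0.47 ± 0.06 SE, adjusted p = 0.000360 by limma). CDKN1B was thus lower in the same libraries in which CDKN1A, of the same family, was higher, and the ratio of CDKN1A to CDKN1B in FPKM went from 1.92 ± 0.0364 to 5.81 ± 0.193 in BxPC3 and from 0.512 ± 0.0386 to 2.20 ± 0.330 in PANC-1 (SD, n = 4).

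CDKN1C encodes p57, an imprinted gene expressed from the maternal allele in many tissues and known from development. BxPC3 controls read 1.14, 1.42, 1.23 and 1.005 FPKM, which is 79 to 122 reads a library, and treated libraries 0.592, 0.527, 0.874 and 0.624 FPKM, or 46 to 66 reads. The groups did not overlap, and the mean was 45.3% lower (log2 change -0.41 ± 0.08 SE, adjusted p = 0.000873 by limma). Without BxPC3 control replicate 2, the highest control, the change was -0.36 (adjusted p = 0.00184 by limma). No gemcitabine library reached 1 FPKM, so the gene entered the test through its 4 controls alone. The added 1 FPKM also shrinks a change at this level: with 0.1 FPKM added the change was -0.79, and with limma-voom on recovered reads -0.84. In PANC-1, CDKN1C read 4.02, 4.97, 4.72 and 4.40 FPKM in controls and 6.59, 5.24, 4.37 and 4.93 FPKM with gemcitabine. The groups overlapped, and only replicate 1, the library that favours GC-rich genes, stood well above the controls. The change was 0.18 (95% interval -0.07 to 0.42, adjusted p = 0.224 by limma), and 0.08 without that replicate. The longest transcript of CDKN1C is 63.8% GC, above 94.1% of the genes tested.

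The INK4 genes that remain in these lines did not pass the test in either. CDKN2C encodes p18, and read 8.68, 10.7, 9.35 and 9.02 FPKM in BxPC3 controls against 6.40, 8.34, 9.14 and 9.84 FPKM with gemcitabine. These ranges overlapped, with a change of -0.16 (95% interval -0.40 to 0.09, adjusted p = 0.222 by limma). Without BxPC3 control replicate 2, the highest control, the change was -0.10 (adjusted p = 0.464 by limma). In PANC-1 it read 5.82, 6.93, 6.61 and 6.77 FPKM in controls and 10.03, 6.99, 7.74 and 7.68 FPKM with gemcitabine. All 4 treated libraries lay above all 4 controls there, by a narrow margin in replicate 2, as did 21.3% of all genes tested in that line (24.5% lay entirely below). The change was 0.27 (95% interval 0.03 to 0.50), which missed the threshold (adjusted p = 0.0647 by limma). Without PANC-1 gemcitabine replicate 1 the change was 0.17 and the adjusted p 0.0224, and without PANC-1 gemcitabine replicate 2 they were 0.32 and 0.0407, so the call for CDKN2C in PANC-1 turned on single libraries. In BxPC3, where CDKN1A and CDKN3 lay entirely above and CDKN1B and CDKN1C entirely below their controls, the shares over all genes were 34.3% and 33.2%.

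CDKN2D encodes p19 of the INK4 family (not to be confused with the product of mouse Cdkn2a that carries the same name). It read 5.42, 6.06, 5.63 and 5.29 FPKM in BxPC3 controls and 4.19, 4.93, 5.55 and 5.03 FPKM with gemcitabine. Overlap was limited to 1 treated library, replicate 3, and the change of -0.16 missed the threshold (95% interval -0.32 to -0.0032, adjusted p = 0.0620 by limma). Without BxPC3 gemcitabine replicate 3 it was -0.21 with an adjusted p of 0.0199 by limma. Without BxPC3 control replicate 2, the highest control, it was -0.13 with an adjusted p of 0.131 by limma. In PANC-1 the gene read 5.23, 4.53, 5.09 and 3.83 FPKM in controls and 7.56, 4.57, 4.83 and 4.86 FPKM with gemcitabine. Replicate 1 alone was high, at 1.59 times the mean of the other 3. The change was 0.17 (95% interval -0.16 to 0.50, adjusted p = 0.378 by limma), and it was 0.03 without that replicate. The intervals of both INK4 genes span changes of up to 0.50 upward in PANC-1 and -0.40 in BxPC3.

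CDKN3, the phosphatase, was the member with the largest log2 change in BxPC3. It read 3.66, 4.01, 4.55 and 3.63 FPKM in BxPC3 controls and 10.01, 10.4, 12.4 and 11.6 FPKM with gemcitabine. The groups were far apart, and the mean was 2.80 times as high (log2 change 1.28 ± 0.08 SE, adjusted p = 2.03e-07 by limma). PANC-1 read 3.14, 2.68, 2.29 and 2.85 FPKM in controls and 6.49, 8.60, 9.78 and 8.45 FPKM with gemcitabine. The lowest treated library stood well above the highest control, and the mean was 3.04 times as high (log2 change 1.31 ± 0.12 SE, adjusted p = 3.18e-05 by limma). Here replicate 1 was the lowest of the treated libraries, at 0.726 of the mean of the others, and CDKN3 has the lowest GC content of the 6 genes (43.9% in its longest transcript). Without that replicate the change was 1.41.

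**Figure D2:**
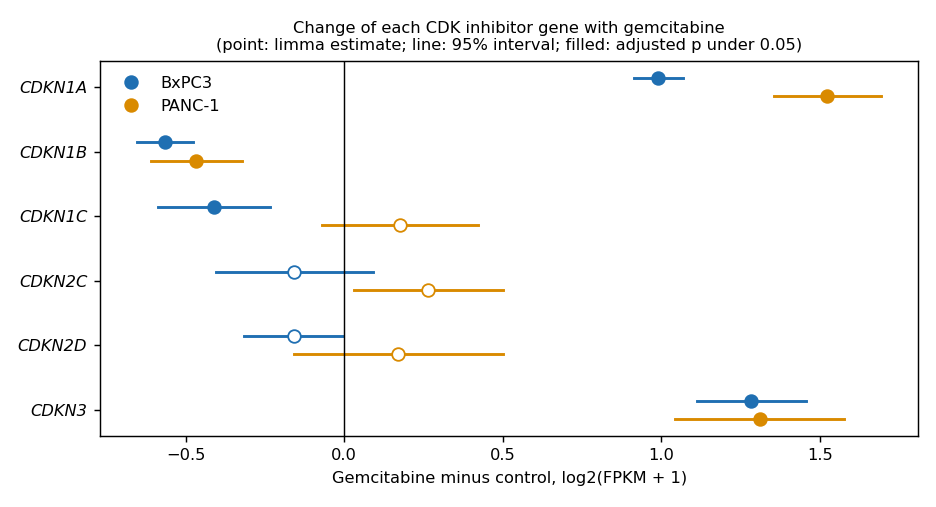
Change of each CDK inhibitor gene, gemcitabine minus control, on the log2(FPKM + 1) scale (horizontal axis) in BxPC3 (blue) and PANC-1 (orange); points are limma estimates, lines 95% intervals, filled points adjusted p under 0.05, n = 4 libraries a group. CDKN1A and CDKN3 lay right of 0 and CDKN1B left of 0 in both lines, and the CDKN1A intervals of the lines did not overlap (0.91 to 1.07 and 1.35 to 1.69).

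The size of the response differed between the lines for CDKN1A and CDKN1C by the interaction of line and treatment in limma over all 16 libraries. The log2 change of CDKN1A was larger in PANC-1 by 0.53 ± 0.08 (SE, adjusted p = 4.67e-05 by limma), in the line where its control level was lower. CDKN1C differed by 0.59 ± 0.14 (adjusted p = 0.00200 by limma), having fallen in BxPC3 and not passed in PANC-1. For CDKN2C the difference of 0.42 ± 0.16 was called (adjusted p = 0.0377 by limma) although neither line alone passed. That call was lost in 10 of 24 alternatives, 7 of them the omission of 1 library: BxPC3 control replicate 2 or 3, BxPC3 gemcitabine replicate 1 or 2, PANC-1 control replicate 1 or 3, or PANC-1 gemcitabine replicate 1, with adjusted p from 0.0538 to 0.0786. The 3 others were not called: CDKN2D differed by 0.33 (95% interval -0.03 to 0.69, adjusted p = 0.116 by limma), CDKN1B by 0.10 (-0.06 to 0.25, adjusted p = 0.279 by limma) and CDKN3 by 0.03 (-0.28 to 0.34, adjusted p = 0.894 by limma). Over all 14134 genes in that fit, 25.2% had a change called higher in PANC-1 and 26.6% one called lower.

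These changes altered the make-up of the inhibitor transcripts, given here as a description without a test. FPKM is per length, so levels of different genes can be summed. The 6 genes summed to 102 ± 2.37 FPKM in BxPC3 controls and 151 ± 6.34 FPKM with gemcitabine, and to 52.9 ± 0.778 and 78.8 ± 4.68 FPKM in PANC-1 (SD, n = 4). CDKN1A took 52.7% ± 0.789 of the sum in BxPC3 controls and 71.2% ± 1.43 with gemcitabine, against 22% ± 1.02 and 44.9% ± 1.31 in PANC-1. CDKN1B, the most abundant of the 6 in PANC-1 controls with 43.1% ± 1.63, took 20.7% ± 2.32 there with gemcitabine. The share of CDKN2C and CDKN2D together went from 14.8% ± 0.833 to 8.81% ± 0.966 in BxPC3 and from 21.2% ± 0.791 to 17.1% ± 2.42 in PANC-1. After treatment the order in BxPC3 was CDKN1A, CDKN1B, CDKN3, CDKN2C, CDKN2D and CDKN1C with no overlap of neighbours. In treated PANC-1 cells CDKN1A and CDKN1B led, and CDKN3, CDKN2C, CDKN2D and CDKN1C followed with each neighbour overlapping the next.

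**Figure D3:**
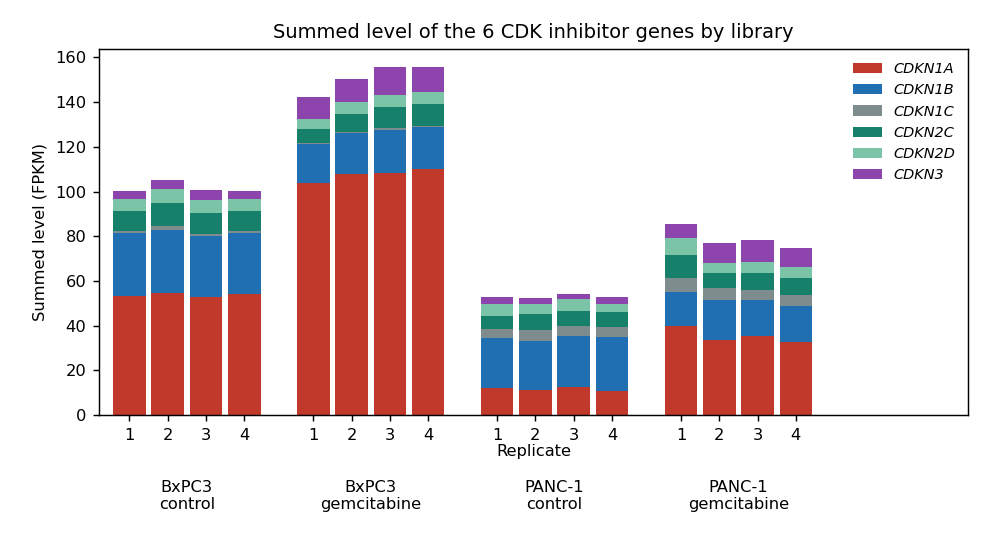
Summed level of the 6 CDK inhibitor genes in FPKM (vertical axis, from 0) in each library, stacked by gene; libraries are grouped by line and treatment and numbered by replicate. CDKN1A (lowest block) made up 52.7% of the sum in BxPC3 controls and 71.2% with gemcitabine, and 22% and 44.9% in PANC-1.

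The kinases and cyclins that these proteins bind were read in the same libraries. Of 12 listed cyclins and CDKs, 9 of 11 tested rose and 0 fell in BxPC3 (median log2 change 0.83). The cyclin gene CCNE2, among those 9, read 0.382 to 0.669 FPKM in BxPC3 controls and 1.40 to 1.85 FPKM with gemcitabine. It thus entered the test through its treated libraries alone. In PANC-1 7 of 10 rose and 1 fell (median 0.94). Over all genes tested, 37.3% were called higher and 36.1% lower in BxPC3, and 20.7% and 24% in PANC-1. CCNB1, the cyclin of mitotic entry, rose 3.01-fold in BxPC3 and in PANC-1 2.97-fold, and CCNA2, the cyclin of S phase and G2, rose 2.69-fold and 5.02-fold. CCNE1, the partner of CDK2 at the start of S phase, rose 3.63-fold in BxPC3 (adjusted p = 1.21e-08 by limma) and 1.45-fold in PANC-1 (adjusted p = 0.000698 by limma), a difference between lines of -1.07 in log2 change (adjusted p = 7.13e-08 by limma). The CDK genes themselves moved less evenly. CDK1 rose 1.91-fold in BxPC3 and in PANC-1 2.41-fold, CDK2 rose 1.43-fold in BxPC3 (log2 change 0.49, adjusted p = 8.95e-06 by limma) and had a log2 change of -0.05 in PANC-1 (adjusted p = 0.496 by limma).

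CDK4 and CDK6, the targets of the INK4 proteins, differed from each other. CDK4 had a log2 change of 0.02 in BxPC3 (adjusted p = 0.738 by limma) and of -0.19 in PANC-1 (adjusted p = 0.0979 by limma), which was -0.27 and called (adjusted p = 2.08e-05 by limma) without PANC-1 gemcitabine replicate 1. CDK6 rose in BxPC3 from 8.03 ± 0.839 to 13.7 ± 1.41 FPKM and fell in PANC-1 from 19.3 ± 0.903 to 11.1 ± 2.32 FPKM (SD, n = 4), a difference of -1.46 in log2 change (adjusted p = 2.73e-06 by limma). The log2 change of CDK6 in PANC-1 was -0.76, and -0.61 without PANC-1 gemcitabine replicate 1. CCND1, the cyclin D1 that INK4 proteins keep off these kinases, had a log2 change of -0.03 in BxPC3 (adjusted p = 0.434 by limma) and rose 2.80-fold in PANC-1, from 61.3 ± 0.670 to 172 ± 7.91 FPKM. The ratio of CDK4 plus CDK6 to CDKN2C plus CDKN2D in FPKM went from 3.86 ± 0.182 to 4.89 ± 0.772 in BxPC3 and from 4.90 ± 0.244 to 3.20 ± 0.458 in PANC-1. Treated PANC-1 libraries ranged from 2.54 to 3.61, and replicate 1 had the highest CDKN2C and CDKN2D among them. The ratio of CDK1 to the phosphatase gene CDKN3 went from 2.71 ± 0.299 to 1.85 ± 0.161 in BxPC3 and from 2.83 ± 0.362 to 2.21 ± 0.247 in PANC-1.

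Genes that switch these kinases on or off by phosphorylation were also counted. Of 8 such genes, 4 rose and 1 fell in BxPC3, where 37.3% of all genes were called higher and 36.1% lower, and 5 rose and 1 fell in PANC-1, where the shares were 20.7% and 24%. CDC25A, a phosphatase that activates CDKs, rose 4.08-fold in BxPC3 and in PANC-1 2.83-fold. PKMYT1, an inhibitory kinase of CDK1, rose 2.97-fold in BxPC3. In PANC-1 PKMYT1 rose from a mean of 2.79 to 7.63 FPKM (adjusted p = 0.000934 by limma). Among 13 pocket proteins and E2F factors, which lie downstream of the CDK4, CDK6 and CDK2 kinases, 10 of 12 tested rose and 2 fell in BxPC3, and 5 of 13 rose and 3 fell in PANC-1. E2F7, a repressor of the family, rose 3.37-fold and 4.82-fold. E2F1 rose 2.32-fold in BxPC3 and in PANC-1 from a mean of 8.70 to 18.1 FPKM (adjusted p = 0.000460 by limma). RBL2, the pocket protein p130 of resting cells, fell to 0.553 of control in BxPC3. In PANC-1 RBL2 fell from a mean of 7.27 to 5.50 FPKM (adjusted p = 0.00284 by limma).

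The proteins p21 and p27 are degraded through ubiquitin ligases, and 13 ligase components were listed for this reason. In BxPC3 9 rose and 1 fell, where 37.3% of all genes were called higher and 36.1% lower. In PANC-1 5 rose and 1 fell, where the shares were 20.7% and 24%. Without PANC-1 gemcitabine replicate 1, 7 rose there, but calls over all 12508 genes tested also grew, from 2595 to 4102 higher. SKP2, the receptor that binds p27, rose 1.55-fold in BxPC3 (adjusted p = 2.29e-07 by limma). In PANC-1 it was 1.24 times as high and called (adjusted p = 0.0412 by limma), with overlapping groups and with the call lost on leaving out any 1 control library or any of PANC-1 gemcitabine replicates 2, 3 and 4. CKS1B, the cofactor of SKP2, rose 1.51-fold in BxPC3 and was at 0.936 of control in PANC-1 (adjusted p = 0.219 by limma). DTL, the receptor of the ligase that removes p21 at replicating DNA, rose 2.41-fold in BxPC3 and in PANC-1 2.51-fold. CDC20, which directs the mitotic ligase, rose 4.40-fold and 2.99-fold, and UBE2C, the ubiquitin-conjugating enzyme of that ligase, rose 2.34-fold and 3.05-fold. These are transcript values, and protein was not measured.

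Of 21 listed transcription regulators of CDKN1A and CDKN1B, 7 of 20 tested rose and 8 fell in BxPC3, near the 37.3% and 36.1% of all genes called higher and lower there. In PANC-1 7 of 18 rose and 0 fell, where the shares over all genes were 20.7% and 24%. Without PANC-1 gemcitabine replicate 1, 7 rose and 7 fell there, so the absence of falls rested on that library. Calls over all 12508 genes tested grew too without it, to 4102 higher and 4626 lower. KLF4, an activator of CDKN1A, rose 3.53-fold in PANC-1 and in BxPC3 from a mean of 13.6 to 19.3 FPKM (adjusted p = 1.09e-06 by limma). FOXO3, a factor that binds CDKN1B, rose 1.36-fold in PANC-1. In BxPC3 FOXO3 had a log2 change of -0.03 (adjusted p = 0.742 by limma). In BxPC3, the regulators with the smallest p were all lower: CEBPA was at 0.352 of control, FOXO4 at 0.282 and TP73 at 0.365.

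CDKN3 was set beside 26 genes of G2 and mitosis. All 26 rose in both lines, with medians of 1.18 in BxPC3 and 1.54 in PANC-1 against 1.28 and 1.31 for CDKN3. Over all genes tested, 37.3% were called higher in BxPC3 and 20.7% in PANC-1. In BxPC3 11 of the 26 had a larger change than CDKN3, and in PANC-1 22 had. The added 1 FPKM shrinks changes at low levels, so these ranks hold on the log2(FPKM + 1) scale only. Across the alternatives the CDKN3 change in PANC-1 reached 1.57, and the ranks there were not tested. PLK1, a mitotic kinase, rose 3.29-fold in BxPC3 (log2 change 1.61) and had a log2 change of 2.32 in PANC-1. AURKA rose 3.15-fold in BxPC3. KIF20A, a mitotic kinesin, rose 6.21-fold in PANC-1 and KIF2C, another, rose 3.91-fold. CDKN2C and CDKN2D, which have been described as genes under E2F control, were set beside 24 E2F targets of G1 and S phase. All 24 of these rose in BxPC3 (median 0.83), and 22 of 23 tested rose in PANC-1 (median 0.93). CCNE2, among the 24, entered the BxPC3 test through its treated libraries alone. Both INK4 genes had a smaller change than all 24 in BxPC3 and than 22 of 23 in PANC-1. ORC1 and CDC6, which license replication origins, rose 3.55-fold and 3.40-fold in BxPC3, and CDC45, which fires them, rose 4.10-fold in PANC-1.

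**Figure D4:**
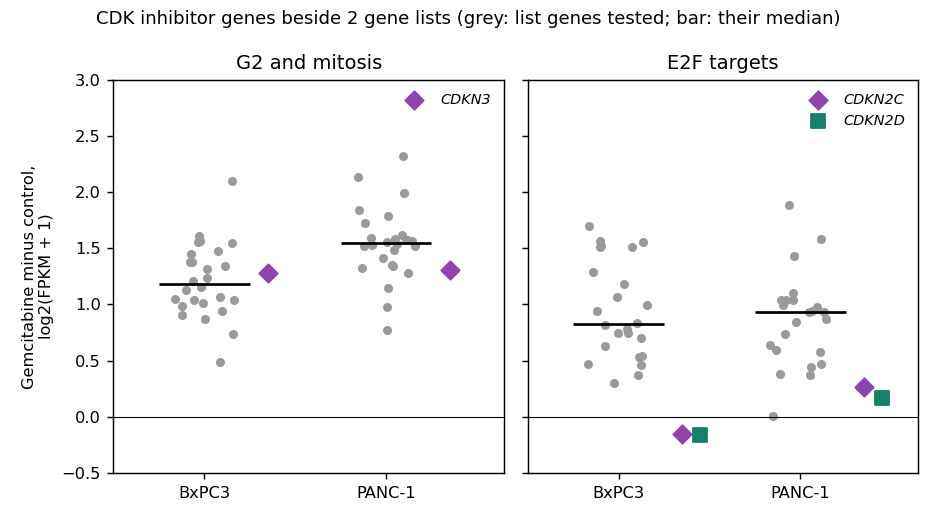
Change with gemcitabine on the log2(FPKM + 1) scale (vertical axis) of the genes tested in 2 lists (grey points, spread sideways for legibility; black bars, medians) and of CDKN3, CDKN2C and CDKN2D (coloured symbols) in BxPC3 and PANC-1. CDKN3 lay within its list in both lines, and CDKN2C and CDKN2D below all 24 E2F targets of BxPC3.

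To see which genes had the pattern most like each inhibitor, log2(FPKM + 1) was centred within each line and correlated over the 16 libraries with 9763 protein-coding genes. The 16 points share treatment, line and library effects, so these correlations are given as descriptions. CDKN1A was nearest to PLK1 (Pearson r = 0.997), KIF2C (0.995) and ARHGDIB (0.994), and CDKN3 to BUB1 (0.988), a kinase of the spindle checkpoint, SH3KBP1 (0.987) and CORO1C (0.987). For CDKN1B the likest were SLC39A11 (0.985), TMEM159 (0.983) and TSPAN31 (0.983). These 3 inhibitors each had many partners with r of at least 0.9: 554 for CDKN1A, 633 for CDKN3 and 492 for CDKN1B. CDKN1C had 23, led by POLD4 (0.951), BAIAP3 (0.925) and RELB (0.923), and CDKN2C and CDKN2D had 2 each, led by SNF8 (0.939) and TMEM231 (0.921). Among the inhibitors, CDKN1A and CDKN3 ran together (r = 0.945) and both ran against CDKN1B (-0.937 and -0.931). CDKN2C, CDKN2D and CDKN1C correlated with one another at 0.685 to 0.731. PANC-1 gemcitabine replicate 1 was the highest of its group for these 3 genes and also for CDKN1A, which correlated with them at -0.10, 0.31 and 0.19 (CDKN1C, CDKN2C and CDKN2D). The part of that library in these values was not tested.

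The chromosomal neighbours were read to see how local each change was. Coordinates are those of GENCODE 29 on GRCh38, whose starts and ends the tables give. CDKN1A (chr6:36676460-36687339, plus strand) overlaps DINOL, a noncoding gene on the other strand, which was close to 0 in all groups (0.0141 FPKM in BxPC3 controls and 0.0327 FPKM with gemcitabine in PANC-1). The nearest expressed coding gene before it is SRSF3, a splicing factor 70860 bases away. Its log2 changes were 0.19 in BxPC3 and 0.66 in PANC-1, both called (adjusted p = 0.00603 and 0.000249 by limma). PPIL1, the nearest after it at 167488 bases, had log2 changes of 0.33 and 0.40, both called (adjusted p = 0.000142 and 0.00118 by limma). CDKN1B (chr12:12715058-12722371, plus strand) holds the intronic transcript AC008115.3, at 0.846 FPKM in BxPC3 controls. Its neighbour CREBL2, 69950 bases away, fell in BxPC3 by 0.62 (adjusted p = 4.80e-07 by limma). CREBL2 had a log2 change of -0.04 in PANC-1 (adjusted p = 0.762 by limma), where CDKN1B fell. APOLD1, 3546 bases away on the other side, had a log2 change of 0.02 in BxPC3 (adjusted p = 0.812 by limma). In PANC-1 APOLD1 rose by 0.28 (adjusted p = 0.0153 by limma), against the fall of CDKN1B. No label says whether reads were counted by strand, and reads of overlapping genes cannot be told apart without it.

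CDKN1C (chr11:2883213-2885773, minus strand) lies in an imprinted cluster, and its neighbours on both sides moved with it in BxPC3. KCNQ1, a potassium channel gene 34103 bases away, fell from 1.40 ± 0.0472 to 0.242 ± 0.0672 FPKM, and SLC22A18, a transporter gene 13948 bases away on the other side, from 8.79 ± 0.249 to 4.28 ± 0.267 FPKM (SD, n = 4; adjusted p = 1.04e-07 and 6.14e-08 by limma). KCNQ1, like CDKN1C, entered the test through its controls. In PANC-1, SLC22A18 rose from 4.26 ± 0.409 to 9.20 ± 3.12 FPKM (log2 change 0.91, adjusted p = 0.00270 by limma; 0.72 without PANC-1 gemcitabine replicate 1). The change of SLC22A18 differed between lines by 1.81 (adjusted p = 8.20e-07 by limma), in the same direction as that of CDKN1C. Across 10 listed genes of the cluster, 3 of 7 tested rose and 4 fell in BxPC3, and 2 of 5 rose and 0 fell in PANC-1. With so few genes, and with 37.3% of all genes called higher and 36.1% lower in BxPC3 and 20.7% and 24% in PANC-1, these counts are no result about the cluster. H19, a noncoding RNA of the cluster, fell in BxPC3 from 13.0 ± 1.75 to 0.735 ± 0.841 FPKM, and it too needed its controls to enter the test. PHLDA2 rose 2.71-fold in PANC-1, a log2 change of 1.39 that was 1.18 without PANC-1 gemcitabine replicate 1. No allele can be read from these tables.

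The INK4 genes sit close to other genes. CDKN2C (chr1:50960745-50974633, plus strand) starts 482 bases from FAF1, which was at 12.3 ± 0.284 FPKM in BxPC3 controls and 12.0 ± 0.113 FPKM with gemcitabine. In PANC-1 the log2 change of FAF1 was 0.11 (adjusted p = 0.157 by limma). RNF11, 261638 bases away on the other side, had log2 changes of -0.29 in BxPC3 (adjusted p = 7.38e-05 by limma) and -0.16 in PANC-1 (adjusted p = 0.423 by limma). CDKN2D (chr19:10566462-10569059, minus strand) lies 425 bases from KRI1, at 11.2 ± 0.278 FPKM in BxPC3 controls and 10.1 ± 0.970 FPKM with gemcitabine. In PANC-1 the log2 change of KRI1 was 0.06 (adjusted p = 0.514 by limma). AP1M2, 3612 bases away on the other side, had log2 changes of 0.13 in BxPC3 (adjusted p = 0.0405 by limma) and -0.62 in PANC-1 (adjusted p = 0.000539 by limma). CDKN3 (chr14:54396849-54420218, plus strand) lies 3342 bases from CNIH1, a cargo receptor gene whose log2 change was -0.18 in BxPC3 (adjusted p = 0.0127 by limma) and -0.49 in PANC-1 (adjusted p = 0.0289 by limma), against the rise of CDKN3. BMP4, 438088 bases away on the other side, rose with CDKN3 in BxPC3 (log2 change 0.67, adjusted p = 3.54e-07 by limma). In PANC-1 BMP4 fell (log2 change -1.47, adjusted p = 1.88e-07 by limma).

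Promoter sequence from RefSeq (GRCh38.p14) was available for 5 of the 6 genes, all but CDKN1C. The stretches of the 250 bases before the RefSeq start that lie outside GENCODE exons are shown for CDKN3 and CDKN1A, the members that rose in both lines, and for CDKN2D, which passed in neither. Each is printed on the strand of its gene. Capitals mark 3 motifs searched on both strands: the CCAAT box (CCAAT), the GC box (GGGCGG) and the cell cycle homology region (TTTGAA, which reads TTCAAA where it lies on the opposite strand), an element known from genes of G2 and mitosis.
CDKN3 promoter, chr14:54396757-54396848, plus strand: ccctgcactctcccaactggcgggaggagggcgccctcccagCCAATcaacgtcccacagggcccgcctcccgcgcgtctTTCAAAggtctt
CDKN1A promoter, chr6:36678560-36678657, plus strand: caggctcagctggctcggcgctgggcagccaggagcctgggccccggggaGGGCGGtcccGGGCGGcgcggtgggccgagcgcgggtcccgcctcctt
CDKN2D promoter, chr19:10569060-10569229, minus strand: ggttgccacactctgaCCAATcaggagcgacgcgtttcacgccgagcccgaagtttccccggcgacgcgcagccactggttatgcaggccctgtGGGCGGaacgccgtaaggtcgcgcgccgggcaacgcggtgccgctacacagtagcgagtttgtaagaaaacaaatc

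The CDKN3 stretch shown held a CCAAT box and, on the opposite strand, a TTTGAA match at -170 to -165 from the RefSeq start. The CDKN1A stretch held 2 GC boxes, at -104 to -99 and -94 to -89, and the CDKN2D stretch 1 CCAAT box and 1 GC box. The exon part of the 250 bases, not shown, held more matches. CDKN1A had GC boxes there at -45 to -40 and -40 to -35. On the opposite strand, CDKN3 had a CCAAT box at -83 to -79 and CDKN2D a GC box at -44 to -39. None of these letters is rare. Of 35116 RefSeq promoter windows of 250 bases, 13.3% held TTTGAA, 32% CCAAT and 42.6% GGGCGG on either strand. Those shares are for whole windows, which are longer than the stretches shown (92, 98 and 170 bases). A match is a description of the letters, and no binding was measured.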

How the data were processed

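Poly-A RNA of BxPC3 and PANC-1 cells was sequenced, per the labels' protocols, and groups follow the sample titles. The authors deposited 1 table of FPKM values per line, with gene lengths in bases. The submitters' processing notes name CASAVA, HISAT2 and the mouse build mm10. All 58735 identifiers are human, however, and 58724 carry GENCODE 29 coordinates on GRCh38. A read counter is not given in the sources used here.

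Multiplying FPKM by length gave whole multiples of 1 step in each library for 100% of values (tolerance 0.02 reads), from which reads were recovered. Their total was 0.963 to 1.05 times the library size implied by that step. Limits of 3 reads cover counting error only. Libraries within a group always differed by more than counting noise (chi-square per degree of freedom 2.07 or higher).

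The lines were fitted one at a time with limma 3.58.1 (R 4.3.3, trend and robust) on log2(FPKM + 1). A gene needed 1 FPKM or more in 4 libraries of the fit. P-values were adjusted by Benjamini-Hochberg and called under 0.05. An interaction term over 16 libraries tested whether the lines differed. Folds are ratios of mean FPKM. The fits were tested on simulated data with 200 changed genes: 96% of 1.5-fold changes were recovered in BxPC3, 56% in PANC-1 and 38% for the difference, and of 2-fold changes 94%, 88% and 82%. The spread was drawn for each gene independently, so a shift that many genes of a library share was not simulated.

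Genes named beside the inhibitors came from set lists (certain cyclins, CDKs and ligase genes always, otherwise up to 3 per list and line with the smallest p and groups apart), from the 3 likest genes per member and from neighbours; not all are printed. Members, lists and rules were chosen with earlier results of these data known. Alternatives varied the pseudocount, the filter, the scaling, the limma settings, limma-voom on recovered reads, a replicate block, a fold threshold and the omission of each library. Removal of a trend with GC content was chosen after seeing the data.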

Additional observations from a re-analysis of the deposited data

Results flagged for a closer look

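In PANC-1 gemcitabine replicate 1, CDKN2D read 7.56 FPKM, and its gap to the next library was 0.903 of the range of the group, above the 95% limit of Dixon's test for 4 libraries. It was the only one of 24 groups of 4 values so marked, and chance marks about 1 in 20. CDKN2D is GC-rich (61.3% in its longest transcript). In this library genes of at least 56.7% GC lay a median of 0.45 (log2 scale) above the mean of the group's other libraries.

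The change with gemcitabine differed between the lines for CDKN1A, by 0.53 (adjusted p = 4.67e-05 by limma), for CDKN1C, by 0.59 (adjusted p = 0.00200 by limma), and for CDKN2C, by 0.42 (adjusted p = 0.0377 by limma), each higher in PANC-1. The first 2 were called in all 24 alternatives, the last in 14 of 24.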

How the results depend on the processing

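The rises of CDKN1A and CDKN3 and the fall of CDKN1B were called in all 16 alternatives of each line. The fall of CDKN1C was called in all 16 alternatives of BxPC3. However, fits that left out a library kept the genes of the main fit, which CDKN1C had entered through its 4 BxPC3 controls alone. Those fits therefore do not show that it would pass the filter again. With a log2 change of at least 1 also required, 1 member was higher and 0 lower in BxPC3, 0 were lower in PANC-1 and 0 differed between lines. With the trend in GC content removed, 4 members were higher in PANC-1: CDKN1C (0.23, adjusted p = 0.00681) and CDKN2C (0.27, adjusted p = 0.000848) were added, and the CDKN2D difference was called (adjusted p = 0.0162). Calls over all genes grew too under that setting, in PANC-1 from 2595 to 3664 higher and from 3007 to 4599 lower. With TPM scaling CDKN2C was called in PANC-1 (adjusted p = 0.0367). The CDKN2C difference was lost without the filter (adjusted p = 0.0947) and with limma-voom (0.0527). The cause was not tested.

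The replicate numbers did not pair the libraries (same-number correlations -0.333 to 0.181 in BxPC3 and -0.376 to 0.189 in PANC-1). With a replicate block, counts of members called in each line were unchanged at 2 higher and 2 lower in BxPC3 and 2 and 1 in PANC-1, the CDKN2C difference of 0.42 had an adjusted p of 0.0585, and calls over all genes went from 4556 to 4347 higher in BxPC3 and from 2595 to 2175 in PANC-1.

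The share of CDKN1A rose by 18.4 percentage points in BxPC3 and 22.9 in PANC-1. It rose by 21.9 and 27.02 without CDKN3 in the sum, and by 25.1 in PANC-1 with reads not divided by length. Directions turned only among values that were not called: the CDKN3 difference ranged from -0.047 to 0.13 on leaving out 1 library, CDK4 in BxPC3 from -0.015 to 0.065 (-0.0040 with the GC trend removed), and CREBL2 in PANC-1 from -0.085 to 0.060. CCND1 in BxPC3 was 0.053 with TPM scaling and 0.020 with limma-voom. In simulated data 56% of 1.5-fold changes were recovered in PANC-1 at this spread, drawn without the GC-linked shift of PANC-1 gemcitabine replicate 1. CDKN1C in BxPC3 rested on 46 to 122 reads a library.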
